A study of Mus musculus with 6 samples.

Results

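The genes examined here encode the enzymes that interconvert pyruvate and lactate and the carriers that move these acids across membranes. The 8 members were listed by symbol and matched to their NCBI Gene identifiers, out of 27179 genes in the count tables, and all 8 were among the 14069 genes tested. They were the lactate dehydrogenase subunits Ldha and Ldhb and the monocarboxylate transporters Slc16a1 (MCT1), Slc16a7 (MCT2) and Slc16a3 (MCT4). The others were Bsg (basigin), the chaperone of MCT1 and MCT4, and the mitochondrial pyruvate carrier subunits Mpc1 and Mpc2. The mRNA of 3 mouse embryonic fibroblast lines was sequenced, with 2 libraries per line from separate RNA preparations. The CPN-/- line lacks CRY1, CRY2, PER1, PER2, NR1D1 and NR1D2, the repressors of the circadian clock. The CPN-/- CRY1 and CPN-/- CRY2 lines carry the same 6 knockouts and express exogenous CRY1 or CRY2 from a viral promoter; they are called the CRY1 line and the CRY2 line. Each of these lines was grown from a single colony selected with blasticidin after retroviral infection, so that the effect of CRY and the difference between clones cannot be told apart. All lines were grown in the same medium without treatment, and RNA was taken before confluence.

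Lactate dehydrogenase is a tetramer of LDHA and LDHB subunits that reduces pyruvate to lactate and regenerates NAD+ for glycolysis. LDHA-rich tetramers predominate in glycolytic tissues, and LDHB-rich tetramers in tissues that use lactate. Lactate leaves or enters the cell with a proton through the monocarboxylate transporters, MCT1 and MCT4 reach the plasma membrane together with basigin, and pyruvate enters the mitochondrion through a carrier made of MPC1 and MPC2. In fibroblasts kept in high glucose much of the pyruvate is exported as lactate. CRY proteins repress the transcription factor CLOCK-BMAL1, which binds E-boxes with the core letters CACGTG. Hypoxia-inducible factors bind sites with a shorter core, of which only the form ACGTG was searched here.

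The promoters of Ldha, Ldhb, Slc16a1 and Slc16a3 are shown because these genes had different fold changes in the CRY-expressing lines, and because their windows differ in these letters. RefSeq promoter entries (build GRCm38.p6) matched 6 of the 8 members, and Slc16a7 and Bsg had none. Each sequence holds the 250 bases before a transcription start, 5′ to 3′ on the strand of the gene, and capitals mark CACGTG and ACGTG on either strand, the shorter motif being part of the longer.
Ldha, chr7:46845554-46845803, forward strand: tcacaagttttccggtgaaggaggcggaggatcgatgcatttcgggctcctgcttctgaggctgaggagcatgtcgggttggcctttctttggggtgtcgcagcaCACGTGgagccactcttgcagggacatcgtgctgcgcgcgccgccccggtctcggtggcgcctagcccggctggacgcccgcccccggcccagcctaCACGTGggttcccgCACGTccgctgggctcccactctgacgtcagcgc
Ldhb, chr6:142507958-142508207, reverse strand: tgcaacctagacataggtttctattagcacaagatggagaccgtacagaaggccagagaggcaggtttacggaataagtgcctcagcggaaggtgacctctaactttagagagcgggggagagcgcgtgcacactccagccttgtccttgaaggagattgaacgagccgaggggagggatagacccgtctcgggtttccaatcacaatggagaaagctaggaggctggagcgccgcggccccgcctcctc
Slc16a1, chr3:104638414-104638663, forward strand: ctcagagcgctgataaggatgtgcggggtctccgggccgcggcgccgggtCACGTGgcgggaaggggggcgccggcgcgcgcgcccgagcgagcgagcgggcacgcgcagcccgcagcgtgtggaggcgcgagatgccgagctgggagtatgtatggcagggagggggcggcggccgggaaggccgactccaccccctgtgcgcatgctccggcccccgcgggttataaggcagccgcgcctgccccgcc
Slc16a3, chr11:120948817-120949066, forward strand: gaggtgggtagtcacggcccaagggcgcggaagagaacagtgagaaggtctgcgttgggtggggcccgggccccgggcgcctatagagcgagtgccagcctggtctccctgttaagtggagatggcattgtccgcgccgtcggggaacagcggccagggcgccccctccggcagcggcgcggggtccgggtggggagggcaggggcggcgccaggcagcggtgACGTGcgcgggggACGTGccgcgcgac
The Ldha window held CACGTG at 145 and 48 bases before the start and a further ACGTG at 34. The Slc16a1 window held CACGTG at 200 bases before the start, and the Slc16a3 window held ACGTG at 27 and at 14. Neither motif occurred in the windows of Ldhb, Mpc2, the second start of Ldha or either start of Mpc1. Among promoters of tested genes, 8.15% of 13241 windows held CACGTG and 21.3% held ACGTG, and among all 32851 windows the shares were 6.02% and 16.6%. These matches describe the letters of the windows only, and other forms of the shorter core were not searched.

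The libraries held between 25957409 and 36106949 counts, and levels are given as CPM, counts scaled by library size and TMM factor. The mean Cry1 mRNA was 119.8 CPM in CPN-/-, 177 CPM in the CRY1 line and 49.6 CPM in the CRY2 line. That of Cry2 was 132.5, 51.2 and 349.9 CPM, so that each CRY-expressing line was highest in the gene it was made to express. Both genes thus had reads in CPN-/-, which lacks the proteins, and the counts do not separate endogenous from exogenous mRNA. Summed fibroblast markers lay between 10400 and 17100 CPM in every library, although Lum had at most 1 count, Thy1 at most 7 and Dcn at most 61. Marker lists for epithelial, endothelial, leukocyte, skeletal muscle and neuronal cells summed to at most 2.34 CPM. The 3 adipocyte markers summed to 8.74 and 12.1 CPM in CPN-/-, 0.747 and 0.778 in the CRY1 line, and 2.39 and 1.85 in the CRY2 line, nearly all of it Fabp4, with Adipoq and Plin1 at 3 counts or fewer. The part of these cells in the results was not tested. The CPN-/- libraries differed from each other more than the libraries of the other lines. The SD over genes of their log2 difference was 0.44, against 0.23 for the CRY1 pair and 0.25 for the CRY2 pair. Over 12478 genes, this difference had a Spearman correlation of −0.70 with the length of the transcript. CPN-/- replicate 2 was higher than replicate 1 by 0.42 on the log2 scale for Ldha, 0.46 for Ldhb, 0.27 for Bsg and 0.48 for Mpc2, and lower by a log2 difference of −0.77 for Slc16a7. In bulk RNA a lower level cannot be separated into fewer expressing cells and less RNA per cell.

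Most of the genes were lower in the lines that expressed CRY than in CPN-/-. A gene was called where edgeR's quasi-likelihood test gave an adjusted p under 0.05. In the CRY1 line, 6 of the 8 members were called lower than in CPN-/-, namely Ldha, Ldhb, Slc16a1, Slc16a3, Slc16a7 and Bsg, where 24.3% of all tested genes were called and 13.1% were called lower. Both CRY1 libraries lay below both CPN-/- libraries for 7 of the 8, as they did for 34% of all tested genes. The median log2 fold change of the 8 members was −1.06, and that of all tested genes −0.01. In the CRY2 line, 4 of the 8 were called lower, namely Ldha, Ldhb, Slc16a3 and Bsg, where 6.66% of tested genes were called and 4.08% were called lower. Both CRY2 libraries lay below both CPN-/- libraries for 6 of the 8 (27.2% of tested genes) and above them for Slc16a7 (28% of tested genes). The member median was −0.52 in this comparison, against −0.01 for all tested genes. Both comparisons use the same CPN-/- libraries. Between the CRY lines, 3 of the 8 were called lower in the CRY1 line than in the CRY2 line, namely Ldhb, Slc16a1 and Slc16a7, where 16.3% of tested genes were called and 8.57% were called lower. Both CRY1 libraries lay below both CRY2 libraries for 5 of the 8, against 36.9% of tested genes.

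No member was called higher by edgeR, where 11.2% of tested genes were called higher in the CRY1 line, 2.58% in the CRY2 line and 7.72% between these lines. Slc16a7 alone was higher at an unadjusted p under 0.05, in the CRY2 line, and the Wald test of DESeq2, which called 8.59% of genes, called it there. With each library's trend with transcript length removed, 40.8% of the genes called in the CRY1 line were lower, against 53.9% without this step, and 36.1% against 61.3% in the CRY2 line. The members called lower stayed called, Mpc2 was called higher in both lines, and Slc16a7 was called higher in the CRY2 line. The calls in the CRY2 line depended on having both of its libraries. Without CRY2 replicate 1 or without replicate 2, edgeR called 0 of the 8 members against CPN-/-, while 1.37% and 1.41% of genes were called; 4 members were lower and 1 was higher at an unadjusted p under 0.05. With CRY1 replicate 1 or replicate 2 left out, 2 members were called in the CRY2 line, as were 3.26% and 3.24% of genes. In the CRY1 line, 3 members and 4.74% of genes were called without CRY1 replicate 1, and 8 members and 63% of genes without CPN-/- replicate 1. Dropping CPN-/- replicate 1 or replicate 2 gave 5 members called between the CRY lines, with 48.4% and 47.7% of genes called.

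**Figure D1:**
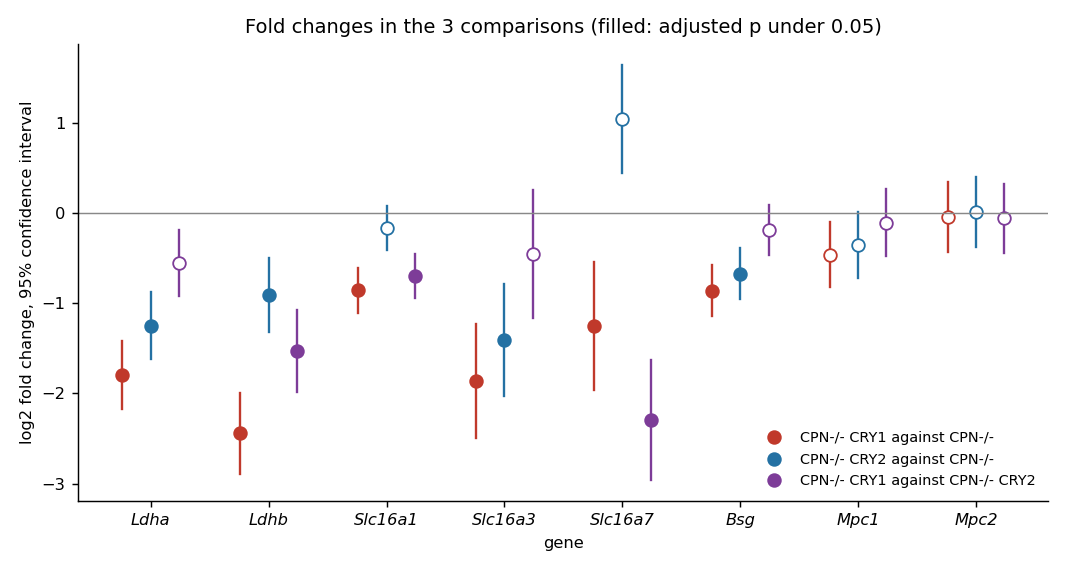
Log2 fold change of each gene (vertical axis) in the 3 comparisons, with bars for the 95% confidence interval from the fit to 6 libraries; filled points had an adjusted p under 0.05. In the CRY1 line all points but that of Mpc2 lie below −0.4, and Slc16a7 is the only gene whose points lie well apart on either side of 0.

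Per kilobase of exon, the genes spanned more than 3 orders of magnitude. Ldha was at 1044 and 1400.4 CPM per kilobase in CPN-/-, ranks 29 and 26 of the 12478 tested genes with a known length, and Bsg was next at 789 and 952, ranks 40 and 43. Mpc2 followed at 37.5 and 52.3, Slc16a1 at 24.4 and 24.7, Ldhb at 11.9 and 16.5 and Mpc1 at 5.94 and 6.21 CPM per kilobase. Slc16a3 at 0.897 and 1.03 and Slc16a7 at 1.18 and 0.682 CPM per kilobase were the lowest, and the values of this last pair overlapped while no other neighbours in the order did.

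The order was not the same in the CRY-expressing lines. Bsg stood above Ldha in all 4 of their libraries, with 478 and 481 against 357 and 346 CPM per kilobase in the CRY1 line, and with 544 and 547 against 494 and 536 in the CRY2 line. Ldhb stood below Mpc1 in the CRY1 line, at 2.76 and 2.44 against 4.77 and 4.03 CPM per kilobase, and stayed above it in the CRY2 line, at 7.47 and 7.62 against 4.49 and 4.99. Slc16a7 stood above Slc16a3 in all 4 libraries of the CRY-expressing lines. The level assigned to Mpc1 is uncertain for a reason given with that gene.

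**Figure D2:**
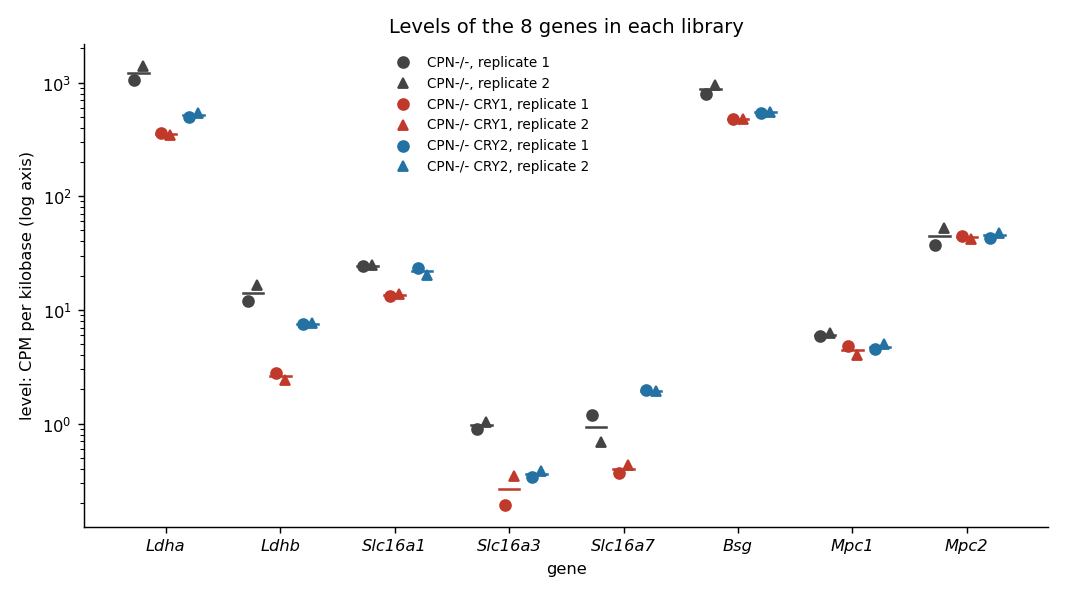
Level of each gene in CPM per kilobase of exon on a log axis, with circles for replicate 1, triangles for replicate 2 and a short line at the mean of each line. Ldha and Bsg lie at 346 CPM per kilobase or more in every library, while Slc16a3 and Slc16a7 lie below 2.

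Ldha (NCBI Gene identifier 16828; chromosome 7, 46842274 to 46855627, forward strand; 8 exons in the transcript used) encodes the subunit that favours lactate formation. It had 62914 and 69149 counts in CPN-/-, 24461 and 20233 in the CRY1 line, and 25470 and 27421 in the CRY2 line. These were 1978 and 2654 CPM, 677 and 656 CPM, and 936 and 1016 CPM in the same order. Every CRY-expressing library lay below both CPN-/- libraries, and the CRY1 libraries lay below the CRY2 libraries. The mRNA was 3.47-fold lower in the CRY1 line (log2 −1.80 ± 0.16, SE; edgeR adjusted p = 0.000787) and 2.37-fold lower in the CRY2 line (log2 −1.25 ± 0.16; adjusted p = 0.0054). Between the CRY lines the log2 difference was −0.55 with a 95% confidence interval from −0.91 to −0.19, and its edgeR adjusted p of 0.054 missed the threshold. The Wald test of DESeq2 called this difference (−0.54, adjusted p = 0.00921). It was −0.55 without CPN-/- replicate 1 or replicate 2, and edgeR called it in both fits. A CPN-/- library enters this difference only through the spread that the fit shares over the lines, and the CPN-/- pair differed most. With a CRY1 or CRY2 library left out the difference lay between −0.61 and −0.49 and was not called. Without CRY2 replicate 1 the value against CPN-/- was −1.18 with an edgeR adjusted p of 0.0846, and without replicate 2 it was −1.30 with 0.0661. Transcripts of 4 pseudogenes were at least 95% identical to Ldha over 150 bases or more, and none of them is a row of the count tables. How reads that match both Ldha and a copy were counted is not given in the sources used here, and their part in its counts was not tested.

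Ldhb (16832; chromosome 6, 142490249 to 142507957, reverse strand; 8 exons) encodes the heart-type subunit. It had 494 and 559 counts in CPN-/-, 130 and 98 in the CRY1 line, and 265 and 268 in the CRY2 line, or 15.5 and 21.5, 3.60 and 3.18, and 9.74 and 9.93 CPM. The 3 lines did not overlap, with the CRY2 line between the others. Ldhb had the largest decrease of the 8 members in the CRY1 line, 5.43-fold (log2 −2.44 ± 0.19; edgeR adjusted p = 0.000522). In the CRY2 line it was 1.88-fold lower (log2 −0.91 ± 0.17; adjusted p = 0.029), and it was 2.90-fold lower in the CRY1 line than in the CRY2 line (log2 −1.53 ± 0.19; adjusted p = 0.00336). The calls in the CRY1 line and between the CRY lines held with each library left out. That in the CRY2 line was lost without CRY1 replicate 1 or 2 (edgeR adjusted p = 0.081 and 0.0815, log2 −0.91 for both) and without CRY2 replicate 1 or 2 (0.225 at log2 −0.89 and 0.216 at −0.91). For Ldhb, 1 pseudogene, not a row of the tables, had nearly identical sequence, and the part of shared reads was not tested here either.

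As a share of LDH subunit mRNA per kilobase, Ldha was 98.87% and 98.84% in CPN-/-, 99.23% and 99.30% in the CRY1 line, and 98.51% and 98.60% in the CRY2 line. The lines did not overlap, and the share was highest in the CRY1 line and lowest in the CRY2 line, by less than 1 percentage point. The sum of both subunits was 1056 and 1417 CPM per kilobase in CPN-/-, 359.9 and 349 in the CRY1 line, and 501 and 544 in the CRY2 line. With 2 libraries per line, the smallest 2-sided exact permutation p of such a ratio or sum is 0.333, so that no test was made of them.

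Slc16a1 (20501; chromosome 3, 104638664 to 104658462, forward strand; 5 exons) encodes MCT1, the widely expressed transporter of lactate and pyruvate. It was at 108.2 and 109 CPM in CPN-/-, 58.7 and 61.5 CPM in the CRY1 line, and 104 and 90.5 CPM in the CRY2 line. The CRY1 libraries lay far below the other 4, and both CRY2 libraries lay just below those of CPN-/-. The decrease in the CRY1 line was 1.81-fold (log2 −0.86 ± 0.10; edgeR adjusted p = 0.00257). Its log2 fold change in the CRY2 line was −0.16 (95% confidence interval −0.41 to 0.08; edgeR adjusted p = 0.364), and the difference between the CRY lines was −0.70 ± 0.10 (adjusted p = 0.0065). Without CRY1 replicate 1 the first value was −0.82 with an edgeR adjusted p of 0.0509. The direct difference lost its call without CRY1 replicate 1 (−0.66, adjusted p = 0.099), without CRY1 replicate 2 (−0.73, 0.0828) and without CRY2 replicate 1 (−0.59, 0.0918).

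Slc16a3 (80879; chromosome 11, 120948484 to 120959000, forward strand; 6 exons) encodes MCT4, the lactate exporter of glycolytic cells. It was scarce, with 127 and 119 counts in CPN-/-, 31 and 47 in the CRY1 line, and 41 and 46 in the CRY2 line, or 3.99 and 4.57, 0.858 and 1.52, and 1.51 and 1.70 CPM. All 4 CRY-expressing libraries lay below both of CPN-/-, and the CRY lines overlapped each other. It was 3.63-fold lower in the CRY1 line (log2 −1.86 ± 0.27; edgeR adjusted p = 0.00478) and 2.66-fold lower in the CRY2 line (log2 −1.41 ± 0.26; adjusted p = 0.0256). The difference between the CRY lines was −0.45, with a 95% confidence interval from −1.16 to 0.26 (edgeR adjusted p = 0.375), which at these counts leaves room for no difference and for a large one. Without CRY2 replicate 1 or 2 the call in that line was lost, at −1.32 with an edgeR adjusted p of 0.218 and at −1.49 with 0.17.

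Slc16a7 (20503; chromosome 10, 125219270 to 125389586, reverse strand; 7 exons) encodes MCT2, a transporter with high affinity for pyruvate and lactate. It had 91 and 43 counts in CPN-/-, 32 and 32 in the CRY1 line, and 129 and 127 in the CRY2 line, or 2.86 and 1.65, 0.885 and 1.04, and 4.74 and 4.71 CPM. The CRY2 libraries were the highest, the CRY1 libraries the lowest, and the groups did not overlap. It was the only member whose 2 fold changes against CPN-/- had opposite signs and 95% confidence intervals that left out 0, being 2.38-fold lower in the CRY1 line than in CPN-/- (log2 −1.25 ± 0.30; edgeR adjusted p = 0.0258), and with a log2 value of 1.05 in the CRY2 line (95% confidence interval 0.45 to 1.65; adjusted p = 0.0618). Set directly against the CRY2 line, it was 4.92-fold lower in the CRY1 line (log2 −2.30 ± 0.28; edgeR adjusted p = 0.00311), and this call held with each library left out. The CPN-/- replicates decided the value in the CRY2 line, which was 1.51 without CPN-/- replicate 1 (edgeR adjusted p = 2.3e-06) and 0.73 without replicate 2 (adjusted p = 0.00849). The value in the CRY1 line was −0.78 without CPN-/- replicate 1 and −1.57 without replicate 2, and it was called in both cases. It lost its call when any one of the CRY-expressing libraries was left out, at −1.13 and −1.36 without CRY1 replicates 1 and 2 (edgeR adjusted p = 0.166 and 0.125) and at −1.24 without CRY2 replicate 1 or 2 (0.0601 and 0.0597).

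Slc16a1 took most of the transporter mRNA in every library. The ratio of Slc16a3 to Slc16a1 per kilobase was 0.037 and 0.042 in CPN-/-, 0.015 and 0.025 in the CRY1 line, and 0.014 and 0.019 in the CRY2 line, so that both CRY-expressing lines lay below CPN-/- and overlapped each other. The sum of the 3 transporters was 26.5 and 26.4 CPM per kilobase in CPN-/-, 13.8 and 14.7 in the CRY1 line, and 25.8 and 22.8 in the CRY2 line.

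Bsg (12215; chromosome 10, 79704358 to 79711979, forward strand; 8 exons) encodes basigin, the chaperone of MCT1 and MCT4, which has other surface functions as well. It was at 1269 and 1531 CPM in CPN-/-, 769 and 774 CPM in the CRY1 line, and 875 and 880.5 CPM in the CRY2 line. The lines did not overlap, and the replicates of the CRY-expressing lines lay close together. The level was 1.82-fold lower in the CRY1 line (log2 −0.86 ± 0.12; edgeR adjusted p = 0.00438) and at 62.7% of CPN-/- in the CRY2 line (log2 −0.67 ± 0.12; adjusted p = 0.0215). The CRY lines differed by −0.19 with a 95% confidence interval from −0.47 to 0.10 (edgeR adjusted p = 0.352). That difference was −0.19 without CPN-/- replicate 1 or replicate 2, and it was called in both fits. As for Ldha, a CPN-/- library enters it only through the shared spread. With a CRY1 or CRY2 library left out the difference lay between −0.19 and −0.18 and was not called. The call in the CRY1 line was lost without either of its libraries (edgeR adjusted p = 0.0666 and 0.0681, at −0.86 in both). The call in the CRY2 line was lost without CRY1 replicate 1 or 2 (0.0906 and 0.0916, at −0.67 in both) and without CRY2 replicate 1 or 2 (0.221 at −0.66 and 0.222 at −0.67).

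Mpc2 (70456; chromosome 1, 165461260 to 165481218, forward strand; 5 exons) encodes a subunit of the pyruvate carrier and showed no detectable change. It was at 38.4 and 53.6 CPM in CPN-/-, 46.2 and 42.9 CPM in the CRY1 line, and 44.4 and 48.4 CPM in the CRY2 line, so that all 4 CRY-expressing libraries lay between the replicates of CPN-/-. The log2 fold changes were −0.04 in the CRY1 line (95% confidence interval −0.43 to 0.34; edgeR adjusted p = 0.857) and 0.01 in the CRY2 line (−0.37 to 0.40; adjusted p = 0.962). Its direction followed the CPN-/- library that was kept. Without replicate 1 the values were −0.26 and −0.21 (edgeR adjusted p = 0.00391 and 0.0259), and without replicate 2 they were 0.22 and 0.28 (adjusted p = 0.0233 and 0.0104). With each library's trend with transcript length removed they were 0.29 and 0.28 (edgeR adjusted p = 0.0166 and 0.039).

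Mpc1 (55951; chromosome 17, 8283787 to 8297667, forward strand; 5 exons) encodes the other subunit of the carrier. It was at 5.69 and 5.95 CPM in CPN-/-, 4.57 and 3.86 CPM in the CRY1 line, and 4.30 and 4.78 CPM in the CRY2 line. Every CRY-expressing library lay below both CPN-/- libraries, and the CRY lines overlapped. Against CPN-/- the log2 value was −0.46 in the CRY1 line (95% confidence interval −0.82 to −0.10; edgeR adjusted p = 0.0673) and −0.36 in the CRY2 line (−0.72 to 0.01; adjusted p = 0.213), and neither was called. The value in the CRY1 line was −0.49 and −0.42 without CPN-/- replicate 1 and 2, and −0.59 and −0.35 without CRY1 replicate 1 and 2. With each library's trend with transcript length removed it was −0.13 (edgeR adjusted p = 0.521). Removing length and GC content gave −0.12 (edgeR adjusted p = 0.562).

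The counts of Mpc1 cannot be read apart from those of its pseudogene. Mpc1-ps, on chromosome 12, is at least 95% identical to Mpc1 over 150 bases or more and is a row of the count tables, and how reads with several matches were counted is not given in the sources used here. It held 920 and 904 counts in CPN-/-, 690 and 530 in the CRY1 line, and 674 and 776 in the CRY2 line, beside 181 and 155, 165 and 119, and 117 and 129 for Mpc1. The pseudogene thus had from 4.18 to 6.02 counts for each count of Mpc1. The Mpc1-ps row was called lower in the CRY1 line (log2 −0.81 ± 0.14; edgeR adjusted p = 0.00879) and not in the CRY2 line (−0.25 ± 0.14; adjusted p = 0.301). With the counts of both rows summed, an alternative chosen after seeing the data, the log2 fold change was −0.75 ± 0.13 in the CRY1 line (95% confidence interval −1.07 to −0.43; edgeR adjusted p = 0.00996) and −0.26 ± 0.13 in the CRY2 line (adjusted p = 0.262). The ratio of Mpc1 to Mpc2 per kilobase was 0.159 and 0.119 in CPN-/-, 0.106 and 0.0963 in the CRY1 line, and 0.104 and 0.106 in the CRY2 line. With the summed counts it was 0.965 and 0.812, 0.548 and 0.525, and 0.700 and 0.742, and the lines no longer overlapped. A further pseudogene, Gm8219, was nearly identical to Mpc1 by the same limits and was not part of the summed counts. An antisense transcript, 4930506C21Rik, shares 267 bases with Mpc1, and the strand setting of the counting is not given in the sources used here.

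**Figure D3:**
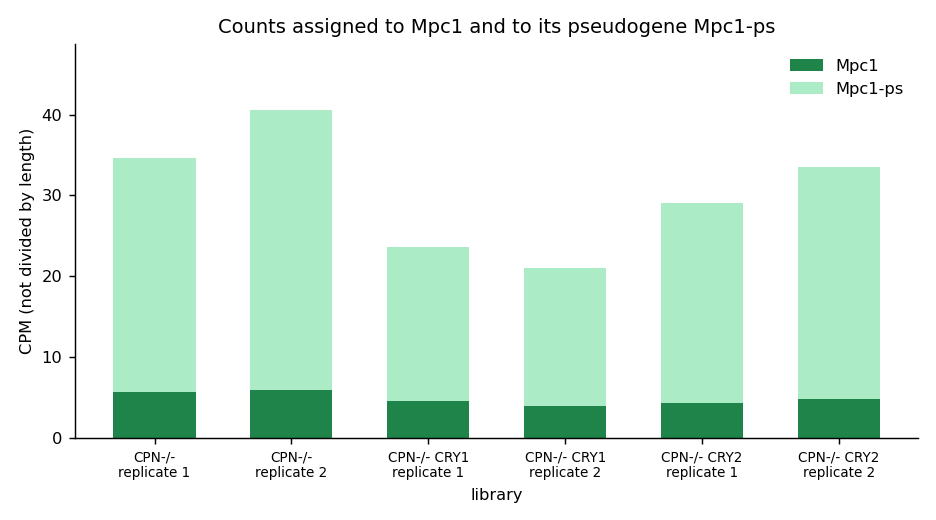
CPM assigned to Mpc1 (dark) and to Mpc1-ps (light), stacked, in each library; CPM here is not divided by length. Mpc1-ps takes most of each bar, and the bars of the CRY1 line are the lowest.

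The counts for other genes of lactate and pyruvate handling stand beside the shares of all tested genes called. These were 24.3% in the CRY1 line and 6.66% in the CRY2 line. Of the other lactate dehydrogenase genes, Ldhc with at most 4 counts and Ldhal6b with at most 12 were too low to test, and Ldhd, which encodes the mitochondrial D-lactate enzyme, was not called (log2 0.21 in the CRY1 line and 1.08 in the CRY2 line). Of 15 further carriers and chaperones 8 were tested, and 2 were called lower in the CRY1 line and 1 in the CRY2 line. Of all tested genes, 13.1% and 4.08% were called lower in these lines. Emb, which encodes embigin, the other chaperone of the transporters, was at 21.3 and 17.0 CPM in CPN-/-, 8.33 and 8.43 in the CRY1 line, and 8.89 and 9.01 in the CRY2 line. It was lower in both CRY-expressing lines (log2 −1.20 ± 0.14, edgeR adjusted p = 0.00232, and −1.10 ± 0.14, adjusted p = 0.00615). Slc16a10, an aromatic amino acid transporter, was lower in the CRY1 line (log2 −2.24 ± 0.45; edgeR adjusted p = 0.0147) at 30 and 20 counts in CPN-/- and 6 and 6 in the CRY1 line.

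Among the enzymes that make or use pyruvate, 2 of 12 tested genes passed as lower and 1 as higher with CRY1, and 1 as lower with CRY2. Of all tested genes, 13.1% were called lower and 11.2% higher with CRY1, and 4.08% lower and 2.58% higher with CRY2. Pkm, the muscle-type pyruvate kinase, was at 3317 and 3772 CPM in CPN-/-, 2156 and 2172 in the CRY1 line and 2357 and 2439 in the CRY2 line, and it was lower in both CRY-expressing lines (log2 −0.71, edgeR adjusted p = 0.00641, and −0.56, adjusted p = 0.0315). Gpt2, the mitochondrial alanine aminotransferase, was lower in the CRY1 line (log2 −1.19 ± 0.10; edgeR adjusted p = 0.000557), and Pdha1, a subunit of pyruvate dehydrogenase, was higher there (0.38 ± 0.09; adjusted p = 0.0283). Of 11 genes of the NADH shuttles, which compete with lactate dehydrogenase for NADH, Gpd1l alone was called in the CRY1 line. It was higher there (log2 0.79 ± 0.13, edgeR adjusted p = 0.00664). At an unadjusted p under 0.05 by edgeR, 3 of the 11 were lower and 1 was higher in that line. The median log2 fold change of the 11 was −0.13. In the CRY2 line edgeR and DESeq2 each called 0 of the 11, with 3 lower at an unadjusted p under 0.05 by either tool. Of 8 tested regulators of LDH and MCT genes, Mycn was lower in the CRY1 line (log2 −2.33 ± 0.37; edgeR adjusted p = 0.00633) at 20 and 20 counts in CPN-/- and 5 and 4 in the CRY1 line, and Esrra was lower in the CRY2 line (−0.59 ± 0.12; adjusted p = 0.0305). Hif1a, a subunit of the hypoxia-inducible factor, had log2 fold changes of −0.41 (edgeR adjusted p = 0.0703) and 0.11 (adjusted p = 0.633) against CPN-/-. It was lower in the CRY1 line than in the CRY2 line (−0.52 ± 0.14, edgeR adjusted p = 0.0458). In that comparison 3 of the 8 tested regulators were called lower and 1 higher, where 16.3% of tested genes were called.

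The fold changes were set beside those of the chromosomes, since each CRY-expressing line is 1 clone. Slc16a1 lies on chromosome 3, where the median of the other 637 tested genes was −0.28 in the CRY1 line against CPN-/- and −0.40 between the CRY lines, with 73.3% and 83.7% of the genes below 0. Its own values were −0.86 and −0.70, and 4 and 2 of its 10 nearest tested genes were called lower. In the CRY2 line the chromosome median was 0.11, and Slc16a1 was at −0.16. For the other members the chromosome median lay between −0.16 and 0.11 in the 3 comparisons. The 10 neighbours of Slc16a3 had a median of −0.42 in the CRY1 line, with 4 of them called lower, and a median of −0.41 between the CRY lines, close to the −0.45 of Slc16a3. The neighbours of Slc16a7 had a median of −0.44 in the CRY1 line, those of Ldhb −0.12 and those of Ldha −0.17. Whether a change of copy number in a clone had a part in these values was not tested.

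**Figure D4:**
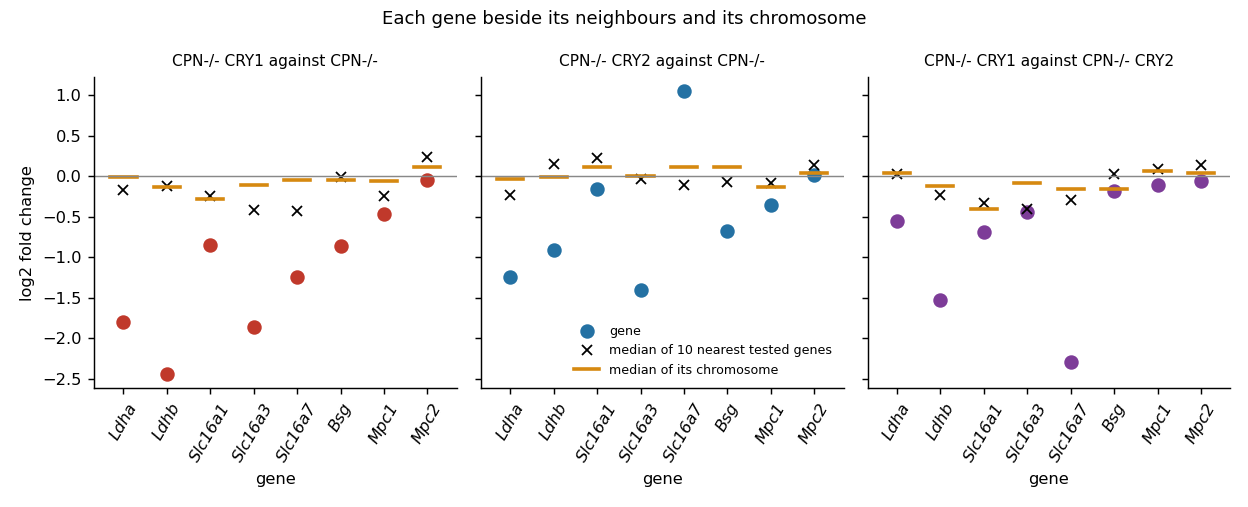
Log2 fold change of each gene (circle), the median of its 10 nearest tested genes (cross) and the median of all other tested genes of its chromosome (bar), in the 3 comparisons. The bar departs most from 0 for Slc16a1, at −0.28 in the CRY1 line and −0.40 between the CRY lines.

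Across the 6 libraries, the genes whose log2 CPM was most like that of Ldha were Ruvbl2 (Pearson r = 0.998), Tmem161a (0.997) and Ankrd37 (0.997), among 11408 tested genes whose mean count was 100 or more. Those most like Ldhb were Angptl6 (0.997), a gene with the identifier 100861652 and no symbol (0.997), and Tspan3 (0.997). Ankrd37 was at 9.97 and 13.6 CPM in CPN-/-, 4.81 and 4.70 in the CRY1 line, and 5.99 and 6.63 in the CRY2 line. Angptl6 was at 18.4 and 23.6, 4.54 and 3.80, and 12.6 and 11.3 CPM. Among the members, Ldha was closest to Bsg (r = 0.993) and farthest from Mpc2 (0.205), and Ldhb was closest to Slc16a1 (0.956). The points of these correlations are 6 libraries in 3 lines, so that they describe the order of the lines and the difference between the CPN-/- replicates.

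Each fold change was computed under 16 alternatives of normalization, filter, tool, model and libraries. In the CRY1 line, Ldha stayed between −1.99 and −1.56, Ldhb between −2.66 and −2.15 and Slc16a3 between −2.31 and −1.48, all called under each alternative. Slc16a1 stayed between −0.91 and −0.82 and Bsg between −0.99 and −0.62. The range was wider for Slc16a7, from −1.57 to −0.78, and for Mpc1, from −0.59 to −0.12, while Mpc2 ran from −0.26 to 0.31 and so changed sign. In the CRY2 line, Ldha ranged from −1.44 to −1.01, Ldhb from −1.12 to −0.64, Slc16a3 from −1.51 to −1.30 and Bsg from −0.80 to −0.41. Slc16a7 ranged from 0.73 to 1.51, Slc16a1 from −0.26 to −0.05, Mpc1 from −0.43 to −0.11 and Mpc2 from −0.21 to 0.30. In the direct comparison, Ldhb ranged from −1.63 to −1.45 and Slc16a7 from −2.41 to −2.18, both called under each alternative, while Slc16a3, which was not called under any, ranged from −0.90 to −0.07.

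**Figure D5:**
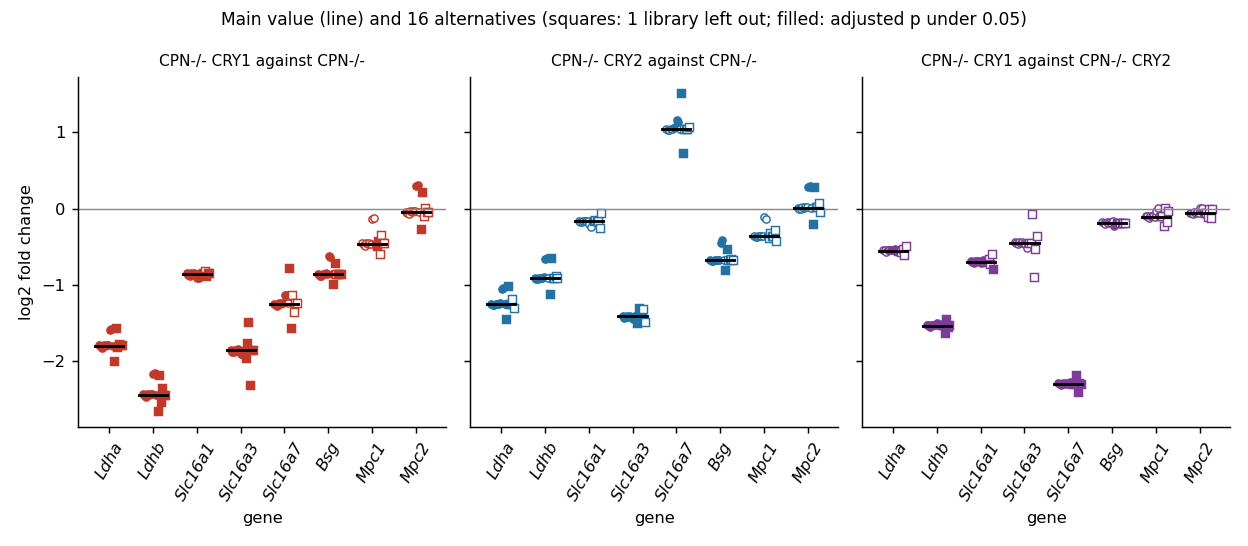
Log2 fold change of each gene in the 3 comparisons, with a line for the reported value, circles for alternatives with all libraries of the comparison, squares for those with 1 library left out, and filled marks for an adjusted p under 0.05. The marks of Ldha, Ldhb and Slc16a3 in the CRY1 line all lie below −1.4, whereas those of Mpc2 fall on both sides of 0.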

How the data were processed

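The 6 libraries, 2 for each of CPN-/-, CPN-/- CRY1 and CPN-/- CRY2, were grouped by their labels. The authors made stranded, paired-end mRNA libraries, aligned the reads with RNA STAR to mm10, and obtained gene counts from featureCounts. The deposited values are raw counts for 27179 NCBI Gene identifiers, without normalization. The annotation, the strand setting and the treatment of reads with several matches are not given in the sources used here.

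Counts were analysed in R 4.3.3 with edgeR 4.0.16. The filterByExpr function (minimum of 10 counts at the median library size and of 15 over all libraries) kept 14069 genes. A quasi-likelihood model with robust dispersions, TMM factors and the line as its only term was fitted to the 6 libraries, and each 2-sided test was adjusted over all tested genes by the Benjamini-Hochberg method, with a threshold of 0.05. Standard errors were derived from the fold change and the F statistic. The p-values measure the spread between RNA preparations of a line. CPM was divided by the length of the union of exons of coding transcripts in the GENCODE M21 annotation that match RefSeq; 12478 tested genes (88.7%) had such a length. Near-identical transcripts were found with BLAST+ 2.17.0 (95% identity over at least 150 bases). Symbols, positions and promoters came from RefSeq tables (GRCm38), and 726 tested genes had no symbol.

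Alternatives were DESeq2's size factors, library size alone and upper-quartile factors; no filter beyond 1 count and 10 counts in every library; the Wald test of DESeq2 1.42.0; a replicate block; a fit to just the 4 libraries compared; removal of each library's loess trend (span 0.5) with length, or with length and GC content; and each library left out, where a line left with 1 library is assumed to vary like the others. For ratios they were the longest transcript, no division by length and each library left out. The sum of Mpc1 and Mpc1-ps was added after seeing the data. The steps were tested on simulated data.

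The members and lists were chosen with earlier results of these data known. All 8 members are named. Listed genes are given as counts, with values for those called against CPN-/-, up to 4 per list, and Hif1a and Ldhd were named after their values were seen. In the list of further carriers, 1 gene is not reported here and was left out of the counts. The 3 genes most like Ldha and Ldhb were taken by Pearson correlation of log2 CPM (prior count 2).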

Additional observations from a re-analysis of the deposited data

Results flagged for a closer look

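The CRY1 line and the CRY2 line differed for 3 of the 8 genes by edgeR's test of the difference between them. In this comparison 16.3% of all tested genes were called and 8.57% were called lower. Each line is 1 clone, so that the effect of CRY and the difference between clones cannot be told apart. The log2 difference, the CRY1 line minus the CRY2 line, was −1.53 for Ldhb (adjusted p = 0.00336), −0.70 for Slc16a1 (adjusted p = 0.0065) and −2.30 for Slc16a7 (adjusted p = 0.00311). For Ldhb and Slc16a7 the difference was called with each library left out, and for Slc16a1 it was not called without CRY1 replicate 1 or 2 or without CRY2 replicate 1 (adjusted p = 0.099, 0.0828 and 0.0918). The median of the other genes on the chromosome of Slc16a1 was −0.40 in the same comparison, and −0.12 and −0.16 on those of Ldhb and Slc16a7.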

How the results depend on the processing

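Depth limited Slc16a3 and Slc16a7, with 31 to 129 counts per library, most. The number of called genes depended strongly on the CPN-/- libraries, and no call for a member in the CRY2 line against CPN-/- survived the loss of a library of that line.

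Genes called in the CRY1 line against CPN-/- were 3423, and 5656 with the length trend removed, 5795 with length and GC content removed, 1798 with only the 4 libraries, and from 663 to 8980 with 1 library left out. For the CRY2 line the count was 937, and 583 with 10 counts in every library, 2615 and 2644 with the trends removed, 473 with 4 libraries, and from 199 to 8046. Between the CRY lines they were 2292, and 4508, 4689, 6838, and from 475 to 6897. Removing the length trend turned the share of calls that were lower from 53.9% to 40.8% in the CRY1 line and from 61.3% to 36.1% in the CRY2 line; with GC content the shares were 41.1% and 35%. The 4 libraries alone gave 68.9% lower for the CRY2 line. The counts of called members, given next, rose and fell with these counts of called genes. In each comparison the most members were called in fits that called many genes, and the fewest in fits that called few. A change in the member count between fits therefore does not set the members apart from other genes. For several of these fits the share of tested genes called is given with the main results.

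Members called in the CRY1 line ranged from 3 to 8 with 1 library left out. With CRY2 they were 2 with 4 libraries and from 0 to 6 with 1 left out. Between the CRY lines they were 5 with length and GC content removed, 5 with 4 libraries, and from 2 to 5.

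Of 384 values for members, 321 kept direction and side of the threshold, 25 lost the call, 25 gained it and 13 changed sign, all of Mpc1 or Mpc2. Mpc2 in the CRY1 line, at −0.04 in the main fit, was 0.29 and 0.31 with the trends removed and from −0.26 to 0.22 with 1 library left out. With CRY2, at 0.01 in the main fit, it was −0.0039 by library size, −0.0021 with upper-quartile factors, and from −0.21 to 0.28 with 1 left out. Between the CRY lines, at −0.06 in the main fit, it was 0.0124 and 0.0053 with the trends removed, and from −0.12 to 0.001 with 1 left out. Mpc1 between the CRY lines, at −0.10 in the main fit, was 0.0087 with length and GC content removed, and from −0.23 to 0.0099 with 1 left out. These ranges hold values of both signs. The cause was not tested.

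The Ldha share was 98.90% in CPN-/- by the longest transcript, and 99.21%, 99.50% and 99.00% without division by length. The Mpc1 to Mpc2 ratio in the CRY2 line was 0.0978 without it, and with Mpc1-ps it was 0.888, 0.536 and 0.721 in CPN-/-, the CRY1 line and the CRY2 line, where Mpc1 in the CRY1 line was called at −0.75. Replicate numbers did not pair the samples (correlations of deviations −0.08, 0.14 and −0.03). The fit with the replicate block called Slc16a7 in the CRY2 line (1.07, adjusted p = 0.0469) and Ldha between the CRY lines (−0.55, adjusted p = 0.0394), and changed no other call of a member.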
